A study of Homo sapiens with 6 samples.

Results

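The TNF superfamily was examined in PC-3 cells, a line derived from human prostate carcinoma, through 58 genes: ligands, receptors, TRAF proteins, adaptors of the death complexes and caspases. The members were taken by symbol from the protein-coding rows of the count table, as TNFRSF or TNFSF followed by a number, the TRAF genes TRAF1 to TRAF7, the numbered caspases, and TRADD, FADD, RIPK1, CD40, LTBR, EDA2R, NGFR, CFLAR, TNF and LTB. They are 58 of 17101 protein-coding genes and of 30651 genes listed. Bulk RNA was sequenced in an MTA1 group, whose data columns carry the prefix shMTA1 (sh is the usual prefix of a short hairpin RNA), and in a Ctrl group, whose columns carry the prefix NC. Each group held 3 libraries of PC-3 cells grown in DMEM/F12 medium with serum, penicillin and streptomycin. Lentivirus, transfection and a screen for stable clones are named for all libraries. Neither the hairpin sequence, nor the number of clones, nor whether the libraries were separate cultures is stated, so the p-values measure the spread among these particular libraries alone, and that spread may be technical.

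Ligands of this superfamily are mostly membrane-bound trimers that cluster receptors on the receiving cell. Receptors with a death domain can recruit TRADD or FADD, and FADD brings initiator caspases together, which then cut the executioner caspases. CFLAR (FLIP) resembles CASP8 without a working protease and limits that step. Receptors without a death domain mostly bind TRAF proteins, which lead to NF-kB and MAP kinase signalling; many of these co-stimulate lymphocytes. In prostate epithelium the ligand TRAIL, encoded by TNFSF10, is best known for inducing apoptosis in tumour cells.

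The libraries held 29909172 to 30938820 counts in the MTA1 group and 31726013 to 33849262 in Ctrl, so every MTA1 library was shallower than every Ctrl library. MTA1 itself, a subunit of the NuRD complex, had 528, 572 and 519 counts in MTA1 libraries 1, 2 and 3, against 1185, 1331 and 1352 in Ctrl libraries 1, 2 and 3 (log2 fold change -1.21 ± 0.054 SE, edgeR adjusted p = 4.3e-13). Of the genes fixed as markers of PC-3 identity, the keratins KRT8 and KRT18 were abundant and KLK3 had at most 1 read in any library. Since many members are lymphoid genes, leukocyte markers were read as well. The 8 of 11 that were listed summed to 1.39 to 2.07 CPM in the MTA1 group and 1.88 to 2.38 in Ctrl, with CD3E, CD2 and MS4A1 not listed and PTPRC at a mean of 0.032 CPM in the MTA1 group and 0.0425 in Ctrl. Fibroblast and endothelial markers summed to 31.8 to 32.5 CPM in the MTA1 group and 46.6 to 52.6 in Ctrl, mostly COL1A1 and PECAM1. Their part in the results was not tested.

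Of 17 tested receptors 9 rose and 1 fell. Of the 58 members, 42 had enough reads to be tested with edgeR's quasi-likelihood model. At a threshold of 0.05 on the adjusted p, 25 of them (59.5%) were called: 13 rose and 12 fell in the MTA1 libraries. The background was of the same size: 58.1% of all 15423 tested genes passed, and 61.4% of the protein-coding ones. By direction, 29.5% of all tested genes were called higher and 28.6% lower, and of the protein-coding ones 31.6% and 29.8%. The members' median log2 fold change was -0.03, against 0.002 over all tested genes, and their median absolute value was 0.31, against 0.29. No overlap between the libraries of the groups was seen for 26 of the 42 tested members (61.9%), against 62.7% of all tested genes and 65.7% of the protein-coding ones. A called change of at least 1.5-fold was found in 10 of 42 members (23.8%), against 19.6% of all tested genes and 17.5% of the protein-coding ones. One of at least 2-fold was found in 5 members (11.9%), TNFSF10, TNFSF14, TNFRSF21, TNFRSF9 and TNFRSF12A, against 6.19% of all tested genes and 4.90% of the protein-coding ones. The shares called and without overlap were near the background, and those past either fold were above it, a difference that was not tested. In bulk RNA, fewer cells carrying a transcript and less of it per cell cannot be told apart. With libraries scaled by size only, the members' split was 16 higher to 8 lower, and on both FPKM scales it was 15 to 8. All genes tilted the same way in these settings. They split 5376 higher to 3574 lower with scaling by size only. On log2(FPKM + 0.1) they split 5043 to 3345, and on log2(FPKM + 1) 5070 to 3335.

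**Figure D1:**
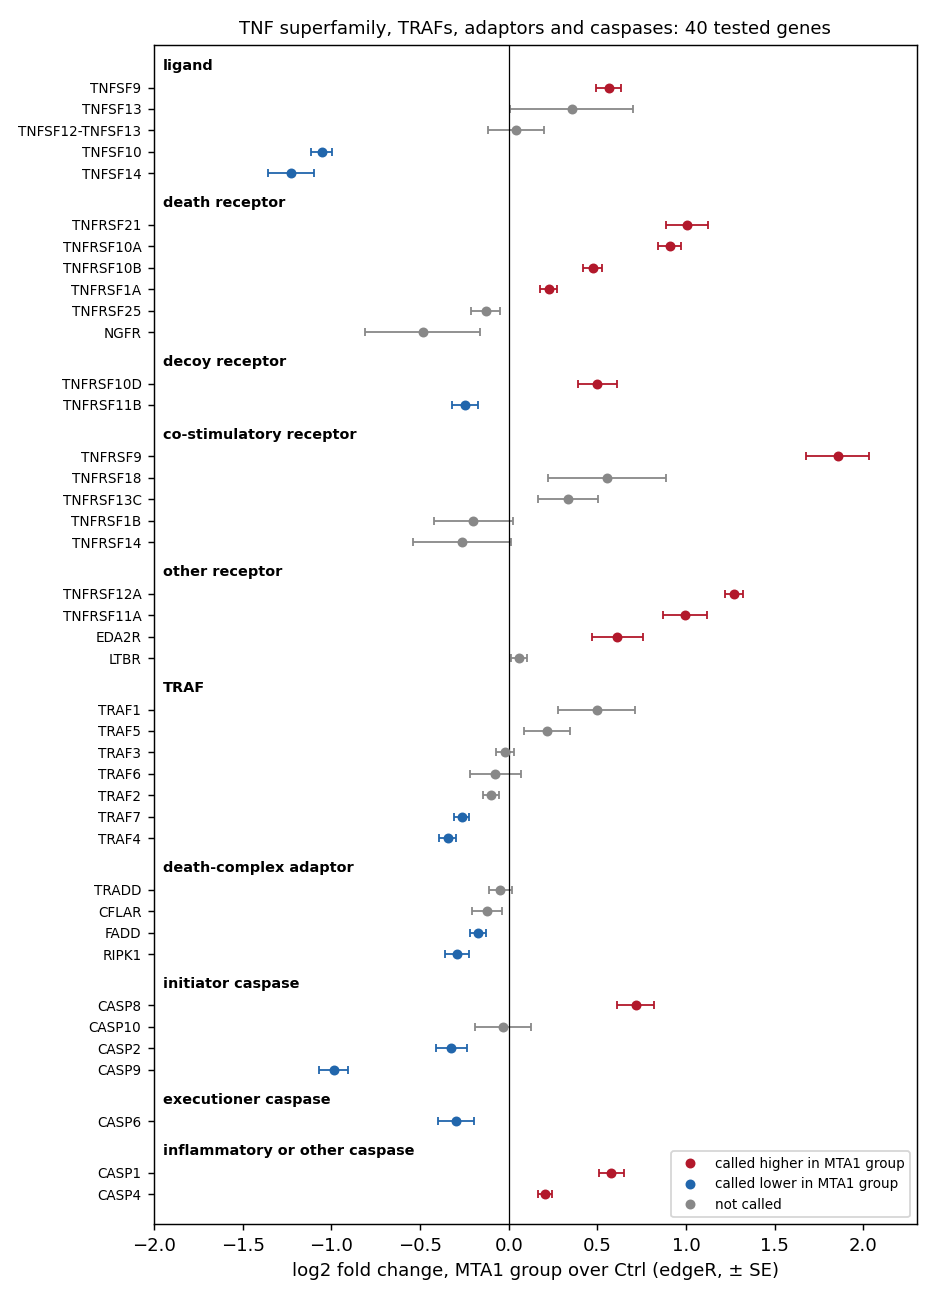
Log2 fold change of the MTA1 group over Ctrl (horizontal axis, edgeR, bars show SE) for 40 of the tested members, grouped by role, with colour marking the call. Of the 17 tested receptors 9 lie to the right as called.

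Among ligands, TRAIL and LIGHT fell and the 4-1BB ligand rose. TNFSF10, which encodes TRAIL (ENSG00000121858.11, chromosome 3), had 18.6, 18.6 and 19.5 CPM in MTA1 libraries 1 to 3, against 36.8, 41.9 and 39.2 in Ctrl libraries 1 to 3. All MTA1 libraries lay far below all Ctrl libraries, at 48.1% of the mean in Ctrl (-1.06 ± 0.058 as log2 fold change, edgeR adjusted p = 5.8e-12). TNFSF14, or LIGHT, a ligand of TNFRSF14 and LTBR (ENSG00000125735.11, chromosome 19), had 2.53, 2.302 and 1.84 CPM in the MTA1 libraries, against 5.02, 5.37 and 5.23 in the Ctrl libraries (-1.23 ± 0.13, edgeR adjusted p = 8.9e-08). Its groups did not overlap either. The reverse was seen for TNFSF9, the ligand of the co-stimulatory receptor 4-1BB (ENSG00000125657.5, chromosome 19). It had 20.4, 22.2 and 24.7 CPM in the MTA1 libraries, against 14.1, 16.5 and 15.02 in the Ctrl libraries (0.56 ± 0.073, edgeR adjusted p = 1.5e-06). Per length, TNFSF9 was the most abundant member ligand at a mean of 12.4 FPKM in the MTA1 group, above TNFSF10 at 4.98, whereas in Ctrl TNFSF10 stood at 9.86 FPKM and TNFSF9 at 8.02.

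The other ligands were scarce. TNFSF13, or APRIL (0.35 ± 0.35), and the readthrough gene TNFSF12-TNFSF13 (0.04 ± 0.16) did not pass, and both share exons, so their reads cannot be parted reliably. TNF had 0, 2 and 0 reads in the MTA1 libraries, against 5, 6 and 4 in the Ctrl libraries. LTB, lymphotoxin beta, had 2, 0 and 1 reads in the MTA1 libraries, against 6, 15 and 9 in the Ctrl libraries. Both were lower in every MTA1 library and too low for the main test; with no filter on low counts both passed (edgeR adjusted p = 0.020 for TNF and 7.1e-05 for LTB). Of the remaining untested ligands, TNFSF15 reached 11 reads in 1 library, TNFSF12, TNFSF18 and TNFSF4 at most 8, and TNFSF13B and TNFSF8 at most 1. TNFSF12 shares exons with the readthrough gene too, so its count may be too low. A gene at 0 reads in a library may still stand at up to 3 counts, or 0.0912 to 0.0984 CPM.

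Of 6 death receptors, all tested, 4 rose and none fell, against 29.5% of all tested genes called higher and 28.6% lower. TNFRSF10A, the TRAIL receptor DR4 (ENSG00000104689.10, chromosome 8), had 22.8, 20.9 and 22.4 CPM in the MTA1 libraries, against 11.3, 11.3 and 12.6 in the Ctrl libraries (log2 fold change 0.91 ± 0.065, edgeR adjusted p = 3.6e-10). TNFRSF10B, the TRAIL receptor DR5 (ENSG00000120889.13, chromosome 8), had 24.5, 24.7 and 24.2 CPM in the MTA1 libraries, against 17.6, 17.4 and 17.8 in the Ctrl libraries (0.48 ± 0.054, edgeR adjusted p = 2.4e-07). Both agonist receptors of TRAIL were thus higher in every MTA1 library, while the ligand was lower. TNFRSF21, or DR6 (ENSG00000146072.6, chromosome 6), had 5.22, 6.18 and 6.44 CPM in the MTA1 libraries, against 3.04, 3.12 and 2.74 in the Ctrl libraries (1.01 ± 0.12, edgeR adjusted p = 4.1e-07). This was the largest fold change among the death receptors. TNFRSF1A, the main TNF receptor and the most abundant death receptor at 19.4 FPKM in the MTA1 group and 15.8 in Ctrl (ENSG00000067182.8, chromosome 12), had 81.7, 84.9 and 90.4 CPM in the MTA1 libraries, against 70.7, 73.7 and 75.3 in the Ctrl libraries (0.23 ± 0.047, edgeR adjusted p = 3.4e-04). Its rise was the smallest of the 4, though the groups did not overlap. TNFRSF25, or DR3, which also co-stimulates T cells, had 7.64, 7.89 and 8.70 CPM in the MTA1 libraries, against 8.38, 8.86 and 9.27 in the Ctrl libraries and did not pass (-0.13 ± 0.082). The neurotrophin receptor NGFR had 9 to 14 reads in the MTA1 libraries and 14 to 20 in the Ctrl libraries, and did not pass (-0.49 ± 0.32).

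Decoy receptors bind ligand without passing on a death signal. TNFRSF10D, a decoy for TRAIL with a truncated death domain (ENSG00000173530.6, chromosome 8), had 5.48, 7.13 and 5.93 CPM in the MTA1 libraries, against 4.27, 4.52 and 4.32 in the Ctrl libraries (0.50 ± 0.11, edgeR adjusted p = 6.3e-04). All MTA1 libraries were higher, with library 2 the highest. The other TRAIL decoy, TNFRSF10C, had 1 read in all 6 libraries; it resembles TNFRSF10D closely, so reads could be split between them. TNFRSF11B, osteoprotegerin, a soluble receptor that binds RANK ligand and TRAIL (ENSG00000164761.9, chromosome 8), had 10.2, 10.5 and 10.8 CPM in the MTA1 libraries, against 11.5, 13.5 and 12.3 in the Ctrl libraries (-0.25 ± 0.075, edgeR adjusted p = 0.0082). That call ended without Ctrl replicate 2 (edgeR adjusted p = 0.062), with scaling by library size only (0.051) and on both FPKM scales (0.072 and 0.075).

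Set against each other per length, the agonist receptors stood higher relative to TRAIL in the MTA1 libraries. The FPKM of TNFRSF10A and TNFRSF10B together were 2.34, 2.23 and 2.20 times that of TNFSF10 in the MTA1 libraries, against 0.689, 0.602 and 0.689 times in the Ctrl libraries. The means differed by 1.596, with an exact 2-sided permutation p of 0.1, the smallest that 3 libraries against 3 allow. With both receptors higher and the ligand lower in every MTA1 library, the ratio had to separate the groups. This p therefore adds nothing to the calls of the single genes. TNFRSF10D made up 10.9%, 14.3% and 11.9% of the FPKM of the 4 TRAIL receptors in the MTA1 libraries, against 14.1%, 14.8% and 13.4% in the Ctrl libraries. These shares overlapped between the groups (exact permutation p = 0.3), and the difference was not detectable with 3 libraries each. Both ratios, and that of CASP8 to CASP9 given with the caspases, were chosen after the values were seen.

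**Figure D2:**
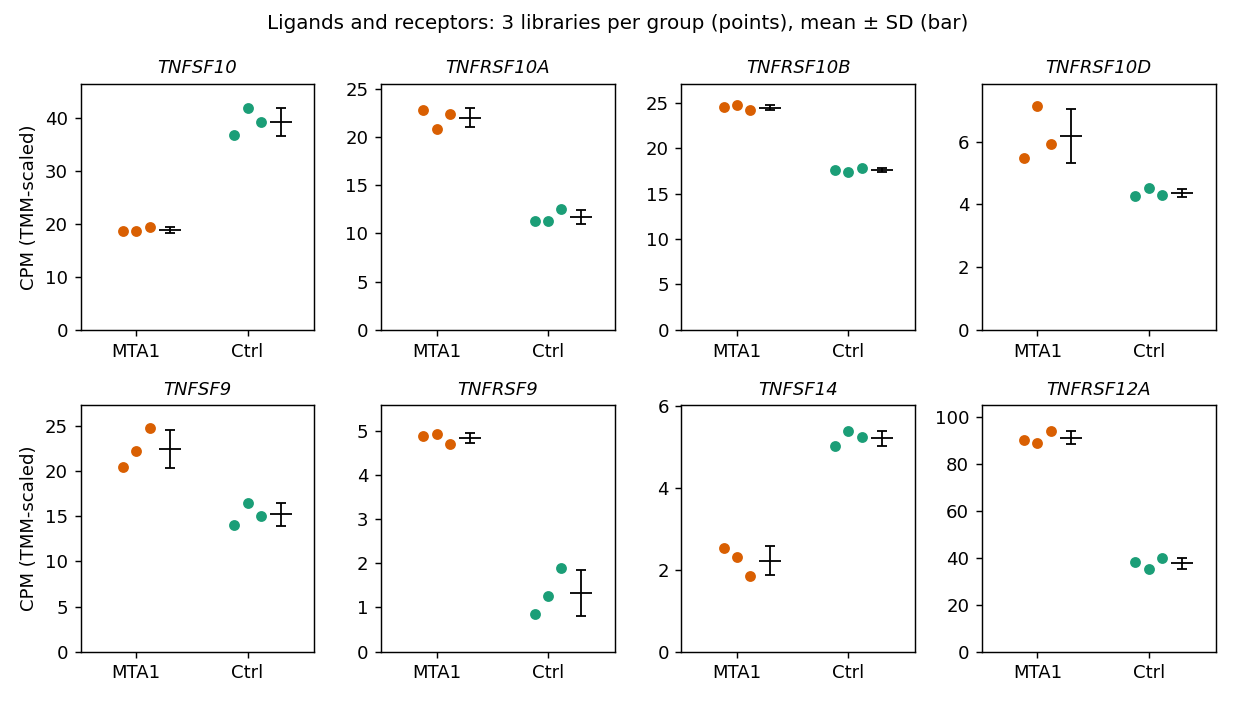
Level in CPM (vertical axes, TMM-scaled, from 0) of 8 ligand and receptor genes in the 3 MTA1 libraries and the 3 Ctrl libraries (points), with mean ± SD beside them. The points of the groups do not overlap in any panel; TNFSF10 and TNFSF14 are lower in the MTA1 libraries and the other 6 genes are higher.

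Co-stimulatory receptors were low. Of 9 members, 5 had enough reads to be tested and 1 passed. TNFRSF9, or 4-1BB, a receptor of activated T cells (ENSG00000049249.9, chromosome 1), had 4.89, 4.92 and 4.70 CPM in the MTA1 libraries, against 0.841, 1.25 and 1.89 in the Ctrl libraries (log2 fold change 1.85 ± 0.18, edgeR adjusted p = 2.7e-08). This was the largest fold change of the 42 tested members, 3.62-fold, from a low level of 0.687 FPKM in the MTA1 group and 0.180 in Ctrl. The Ctrl libraries varied among themselves, and the fit on log2(FPKM + 1), which compresses low genes, gave 0.52. Its ligand gene TNFSF9 rose with it, as given above. TNFRSF13C, the BAFF receptor of B cells, had 2.40, 3.53 and 2.80 CPM in the MTA1 libraries, against 2.36, 1.86 and 2.71 in the Ctrl libraries, and did not pass (0.34 ± 0.170, edgeR adjusted p = 0.097). It passed without Ctrl replicate 3 (edgeR adjusted p = 0.0495), without MTA1 replicate 1 (0.030) and with scaling by library size only (0.049). TNFRSF18, or GITR, had 0.558, 0.473 and 0.483 CPM in the MTA1 libraries, against 0.356, 0.214 and 0.456 in the Ctrl libraries (0.56 ± 0.33, edgeR adjusted p = 0.16). Its groups did not overlap, and it passed on both FPKM scales (limma adjusted p = 0.043 and 0.033). TNFRSF1B, the second TNF receptor (-0.20 ± 0.22), and TNFRSF14 (-0.26 ± 0.27) did not pass. CD40 had 3 to 6 reads in the MTA1 libraries and 5 to 7 in the Ctrl libraries. TNFRSF4 (OX40) reached 4 reads at most and TNFRSF17 1 read. TNFRSF8 (CD30) had 2, 0 and 0 reads in the MTA1 libraries, against 8, 6 and 5 in the Ctrl libraries; it was untested and passed with no filter (edgeR adjusted p = 0.0035). Thus 4 of 6 death receptors and 1 of 5 tested co-stimulatory receptors rose, against 29.5% of all tested genes, a difference in counts that was not tested. The median log2 fold changes were alike, 0.35 for the death receptors and 0.34 for the tested co-stimulatory ones. The counts of calls therefore do not show that the classes changed by different amounts.

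Among the other receptors, 3 of 4 tested rose and none fell, against 29.5% of all tested genes called higher and 28.6% lower. With 4 genes this difference was not tested. TNFRSF12A, or Fn14, the receptor of TWEAK and a gene induced by growth factors and injury in many tissues (ENSG00000006327.14, chromosome 16), had 90.3, 89.2 and 94.4 CPM in the MTA1 libraries, against 38.2, 35.3 and 39.9 in the Ctrl libraries (log2 fold change 1.27 ± 0.050, edgeR adjusted p = 5.9e-14). It had the smallest p of all members, and the levels were 2.42-fold higher with no overlap. In the MTA1 group it stood at 45.9 FPKM, next to LTBR at 48.6, whereas in Ctrl it stood at 18.1 and LTBR at 44.5. Its ligand gene TNFSF12 had at most 8 reads in any library. However, TNFSF12 shares 29.4% of its exonic bases, on the same strand, with the readthrough gene TNFSF12-TNFSF13, so its own level cannot be read reliably. TNFRSF11A, or RANK, the receptor through which osteoclasts are formed (ENSG00000141655.17, chromosome 18), had 4.59, 5.20 and 4.99 CPM in the MTA1 libraries, against 2.27, 2.35 and 2.80 in the Ctrl libraries (0.99 ± 0.13, edgeR adjusted p = 1.0e-06). EDA2R, the receptor of the A2 form of ectodysplasin (ENSG00000131080.15, chromosome X), had 3.08, 3.15 and 3.09 CPM in the MTA1 libraries, against 2.33, 1.77 and 2.01 in the Ctrl libraries (0.61 ± 0.15, edgeR adjusted p = 0.0012). All MTA1 libraries were higher for both genes. LTBR, the lymphotoxin beta receptor and the most abundant member per length (ENSG00000111321.11, chromosome 12), had 310.3, 335 and 346 CPM in the MTA1 libraries, against 309.7, 310.8 and 330.5 in the Ctrl libraries. It did not pass (0.06 ± 0.045, edgeR adjusted p = 0.26), though it did with scaling by library size only (0.13, edgeR adjusted p = 0.020). TNFRSF19 had at most 4 reads.

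The sequences upstream of the transcription start are shown for called members with large fold changes, so that these can be compared by sequence. The 2 highest and the 2 lowest fold changes were taken among those with a promoter in the RefSeq table (39 of 58 members). A mean of 2 CPM or more was required, and the chromosome of the TRAIL receptor genes was left out. TNFRSF12A rose more than TNFRSF21 (log2 fold change 1.27 against 1.01) but had no promoter in that table and is not shown. Each run covers the 250 bases before the start, 5′ to 3′ on the strand of the gene, build GRCh38.p14. Capitals mark matches on either strand to the AP-1 site TGANTCA, the NF-kB consensus, the GC box GGGCGG, the TATA box TATAAA or the E-box CACGTG.
TNFRSF9 (chr1:7940840-7941089, minus strand): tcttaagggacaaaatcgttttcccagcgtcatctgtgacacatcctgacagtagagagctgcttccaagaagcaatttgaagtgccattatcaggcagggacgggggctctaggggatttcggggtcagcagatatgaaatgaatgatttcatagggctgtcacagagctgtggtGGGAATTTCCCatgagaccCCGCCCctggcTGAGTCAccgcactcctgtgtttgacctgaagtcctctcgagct
TNFRSF21 (chr6:47309906-47310155, minus strand): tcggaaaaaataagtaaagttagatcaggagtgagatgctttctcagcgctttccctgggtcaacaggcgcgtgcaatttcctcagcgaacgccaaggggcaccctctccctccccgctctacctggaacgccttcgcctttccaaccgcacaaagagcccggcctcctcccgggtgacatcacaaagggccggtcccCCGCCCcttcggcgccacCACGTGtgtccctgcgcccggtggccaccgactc
TNFSF14 (chr19:6670161-6670410, minus strand): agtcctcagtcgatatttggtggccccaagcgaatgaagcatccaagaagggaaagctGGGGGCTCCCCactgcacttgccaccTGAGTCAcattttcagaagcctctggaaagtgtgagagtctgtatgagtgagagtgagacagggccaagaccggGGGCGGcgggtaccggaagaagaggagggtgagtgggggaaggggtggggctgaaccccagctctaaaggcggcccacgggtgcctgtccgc
TNFSF10 (chr3:172523431-172523680, minus strand): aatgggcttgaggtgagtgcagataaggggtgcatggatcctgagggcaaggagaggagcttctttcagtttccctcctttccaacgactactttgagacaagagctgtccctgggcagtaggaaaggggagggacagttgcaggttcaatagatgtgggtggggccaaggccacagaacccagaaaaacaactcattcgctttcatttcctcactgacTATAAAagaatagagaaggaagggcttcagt

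TNFRSF9, which rose most, and TNFSF14, which fell most, both held an AP-1 match and a pair of overlapping NF-kB matches in these windows. In TNFRSF9 the NF-kB matches lay from 74 to 64 bases before the start and the AP-1 match from 44 to 38. In TNFSF14 they lay farther out, from 192 to 182 and from 166 to 160 bases. TNFSF10 held a TATA box from 31 to 26 bases before the start and no GC box, with 2 CpG dinucleotides in the window, while TNFRSF21 held an E-box from 34 to 29 bases and 20 CpG dinucleotides. Across the 39 members with a promoter, 4 (10.3%) held the AP-1 site, against 6.60% of all 27305 promoters of this length. The NF-kB consensus was in 7 members (17.9%), against 9.57% of all promoters, and the GC box in 27 (69.2%), against 42.3%. The TATA box was in 5 (12.8%, against 11.1%) and the E-box in 3 (7.69%, against 6.49%). The members are all protein-coding, whereas the set of all promoters was not limited by gene type, so the shares are not matched in this respect. None of these differences was tested. Members holding the NF-kB consensus were TNFRSF9, higher, TNFSF14, lower, CFLAR, TNFRSF14 and TRAF3, which did not pass, and LTB and CASP14, not tested. A match describes letters and says nothing of what binds there.

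The TRAF genes changed little, and the 2 that passed fell. TRAF4, a TRAF protein of epithelia that is often abundant in carcinomas (ENSG00000076604.15, chromosome 17), had 43.2, 40.7 and 43.8 CPM in the MTA1 libraries, against 51.7, 54.8 and 55.5 in the Ctrl libraries (log2 fold change -0.34 ± 0.049, edgeR adjusted p = 5.0e-06). TRAF7, the member without the TRAF domain of the others (ENSG00000131653.13, chromosome 16), had 125.4, 130.2 and 136 CPM in the MTA1 libraries, against 153, 159 and 158 in the Ctrl libraries (-0.27 ± 0.042, edgeR adjusted p = 1.7e-05). Neither pair of groups overlapped, and TRAF7 was the most abundant TRAF per length, at 26.3 FPKM in the MTA1 group and 30.2 in Ctrl. TRAF2, the main adaptor of TNF receptor signalling, had 84.2, 85.9 and 89.7 CPM in the MTA1 libraries, against 87.8, 95 and 95.4 in the Ctrl libraries and did not pass (-0.10 ± 0.045, edgeR adjusted p = 0.067). It passed without Ctrl replicate 1 (edgeR adjusted p = 0.015), without MTA1 replicate 3 (0.028) and with a filter of 1 CPM in 3 libraries (0.0485). TRAF3, a brake on the non-canonical NF-kB route, had 28.9, 28.98 and 30.7 CPM in the MTA1 libraries, against 28.5, 30.9 and 30.5 in the Ctrl libraries (-0.02 ± 0.053). TRAF5 (0.22 ± 0.13) and TRAF6 (-0.08 ± 0.14) did not pass. TRAF1, itself a target of NF-kB, had 39, 53 and 54 reads in the MTA1 libraries, against 41, 27 and 39 in the Ctrl libraries (0.50 ± 0.22, edgeR adjusted p = 0.054). It passed without Ctrl replicate 1 (0.035), without MTA1 replicate 1 (0.026) and under 5 other alternative settings.

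Of the adaptors of the death complexes, FADD and RIPK1 fell slightly and TRADD and CFLAR did not pass. FADD, which joins death receptors to initiator caspases (ENSG00000168040.5, chromosome 11), had 40.6, 40.0 and 40.0 CPM in the MTA1 libraries, against 45.2, 45.1 and 45.5 in the Ctrl libraries (-0.17 ± 0.046, edgeR adjusted p = 0.0032). The call ended with scaling by library size only (-0.10, edgeR adjusted p = 0.060). RIPK1, the kinase at the branch between survival and death (ENSG00000137275.16, chromosome 6), had 14.4, 13.4 and 15.8 CPM in the MTA1 libraries, against 18.3, 18.2 and 16.9 in the Ctrl libraries (-0.29 ± 0.068, edgeR adjusted p = 0.0011). Its call ended on both FPKM scales (limma adjusted p = 0.065 and 0.061). Both were lower in every MTA1 library. TRADD had 12.9, 13.0 and 12.7 CPM in the MTA1 libraries, against 13.3, 12.8 and 13.8 in the Ctrl libraries (-0.05 ± 0.066). CFLAR had 11.1, 13.0 and 10.1 CPM in the MTA1 libraries, against 13.2, 12.4 and 11.7 in the Ctrl libraries (-0.12 ± 0.085, edgeR adjusted p = 0.23). MTA1 library 2 stood above the other MTA1 libraries, and without it CFLAR passed as lower (-0.23, edgeR adjusted p = 0.032).

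Initiator caspases moved in opposite directions. CASP8, which FADD recruits below death receptors (ENSG00000064012.22, chromosome 2), had 5.64, 5.77 and 6.25 CPM in the MTA1 libraries, against 3.46, 3.70 and 3.59 in the Ctrl libraries (log2 fold change 0.72 ± 0.104, edgeR adjusted p = 6.9e-06). CASP9, which the apoptosome of the mitochondrial route activates (ENSG00000132906.18, chromosome 1), had 7.32, 8.17 and 8.60 CPM in the MTA1 libraries, against 14.4, 16.2 and 17.1 in the Ctrl libraries (-0.99 ± 0.082, edgeR adjusted p = 2.9e-09). CASP8, of the receptor route, was thus higher and CASP9, of the mitochondrial route, lower in every MTA1 library, and neither gene's groups overlapped. Per length, CASP8 reached 0.560, 0.514 and 0.530 times the FPKM of CASP9 in the MTA1 libraries, against 0.175, 0.165 and 0.154 times in the Ctrl libraries (exact permutation p = 0.1, the smallest possible). That p followed from the separation of the single genes and adds nothing to their calls. CASP2, an initiator linked to DNA damage (ENSG00000106144.20, chromosome 7), had 7.28, 6.37 and 6.38 CPM in the MTA1 libraries, against 7.83, 8.79 and 8.42 in the Ctrl libraries (-0.32 ± 0.088, edgeR adjusted p = 0.0037). That call ended on both FPKM scales (limma adjusted p = 0.060 and 0.0505). CASP10, the relative of CASP8 beside it on chromosome 2, had 56, 70 and 67 reads in the MTA1 libraries, against 70, 70 and 64 in the Ctrl libraries, and did not pass (-0.03 ± 0.16).

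Among caspases that act downstream of the initiators, CASP6 (ENSG00000138794.10, chromosome 4) had 4.66, 4.57 and 4.25 CPM in the MTA1 libraries, against 5.41, 5.71 and 5.44 in the Ctrl libraries (-0.30 ± 0.0997, edgeR adjusted p = 0.015). All MTA1 libraries were lower. The call ended with DESeq2 (adjusted p = 0.098), scaling by library size only (0.0565) and without MTA1 replicate 3 (0.058).

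The inflammatory caspases with enough reads rose. CASP1, which matures interleukin 1 beta in inflammasomes (ENSG00000137752.24, chromosome 11), had 20.9, 19.1 and 20.3 CPM in the MTA1 libraries, against 12.7, 14.9 and 12.7 in the Ctrl libraries (0.58 ± 0.070, edgeR adjusted p = 5.9e-07). CASP4, a sensor of intracellular lipopolysaccharide (ENSG00000196954.14, chromosome 11), had 100.2, 100.1 and 99.4 CPM in the MTA1 libraries, against 84.9, 89.1 and 86.1 in the Ctrl libraries (0.20 ± 0.041, edgeR adjusted p = 2.5e-04). CASP4 was the most abundant caspase per length, at 13.6 FPKM in the MTA1 group and 11.2 in Ctrl. CASP5, which lies between them, had at most 3 reads. CASP14, a caspase of the differentiating epidermis, had 3, 14 and 5 reads in the MTA1 libraries, against 0, 1 and 1 in the Ctrl libraries; it was not tested and passed with no filter (edgeR adjusted p = 5.1e-04).

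**Figure D3:**
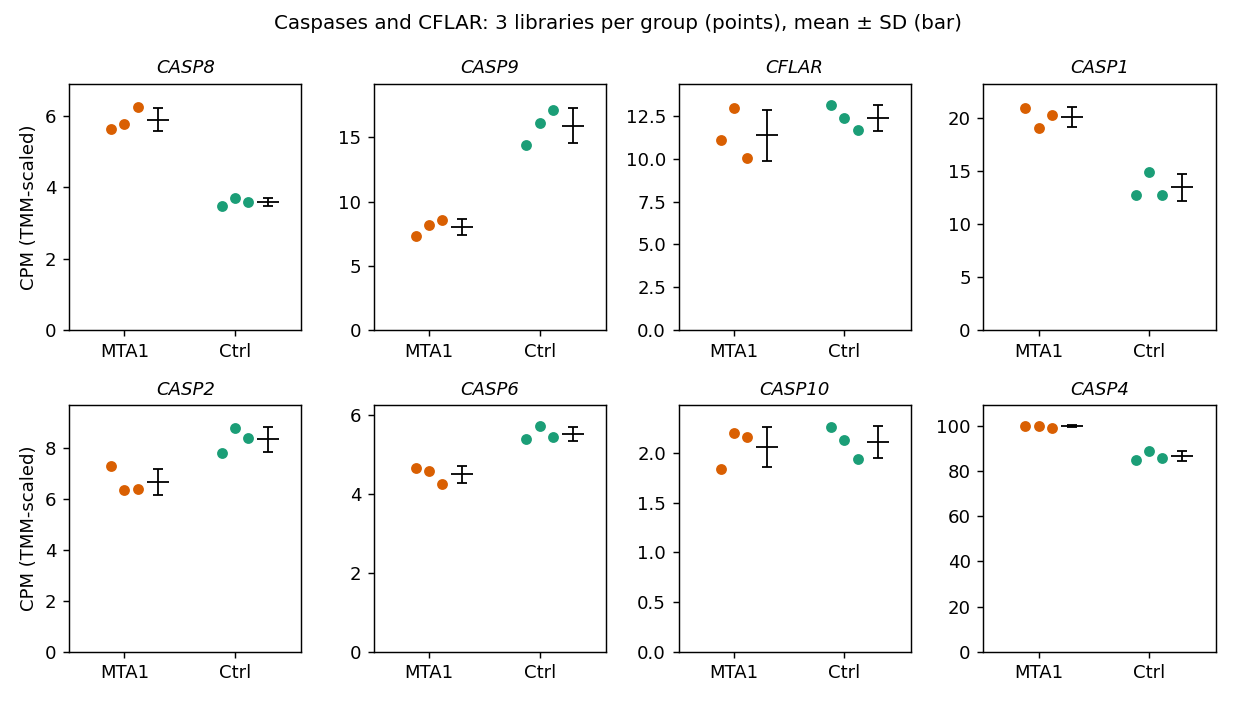
Level in CPM (vertical axes, TMM-scaled, from 0) of 7 caspases and CFLAR in the 3 MTA1 libraries and the 3 Ctrl libraries (points), with mean ± SD beside them. CASP8, CASP1 and CASP4 are higher in every MTA1 library, CASP9, CASP2 and CASP6 are lower in every MTA1 library, and the groups of CFLAR and CASP10 overlap.

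Per length the members covered a wide range. The deposited FPKM averaged over all 6 libraries ran from 46.6 for LTBR to 0.0900 for NGFR. LTBR, TNFRSF12A, TRAF7, FADD, TRAF2, TNFRSF1A and CASP4 formed the upper end, above 12 FPKM. The 5 tested co-stimulatory receptors all lay below 0.6 FPKM on this average. Summed over the role, death receptors had 33.9 ± 1.40 FPKM in the MTA1 group and 24.9 ± 0.814 in Ctrl (SD, n = 3 each), mostly from TNFRSF1A. Co-stimulatory receptors summed to 2.13 ± 0.107 FPKM in the MTA1 group and 1.44 ± 0.198 in Ctrl. Decoy receptors summed to 5.37 ± 0.282 FPKM in the MTA1 group and 5.34 ± 0.425 in Ctrl, with TNFRSF10D higher and TNFRSF11B lower. In the ordered list the neighbours FADD and TRAF2, at 22.1 and 21.6 FPKM on this average, swapped places between the groups. In the MTA1 group they stood at 21.3 ± 0.16 and 21.4 ± 0.83 FPKM (SD), so that swap lay within the spread. TNFSF9 and TRAF4 also swapped, at 12.4 and 8.42 FPKM in the MTA1 group, against 8.02 and 10.2 in Ctrl. So did TRADD and TNFRSF10A, at 5.35 and 6.81 against 5.27 and 3.46. CASP1 and TNFRSF11B did too, at 4.92 and 3.78 FPKM in the MTA1 group, against 3.14 and 4.28 in Ctrl.

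**Figure D4:**
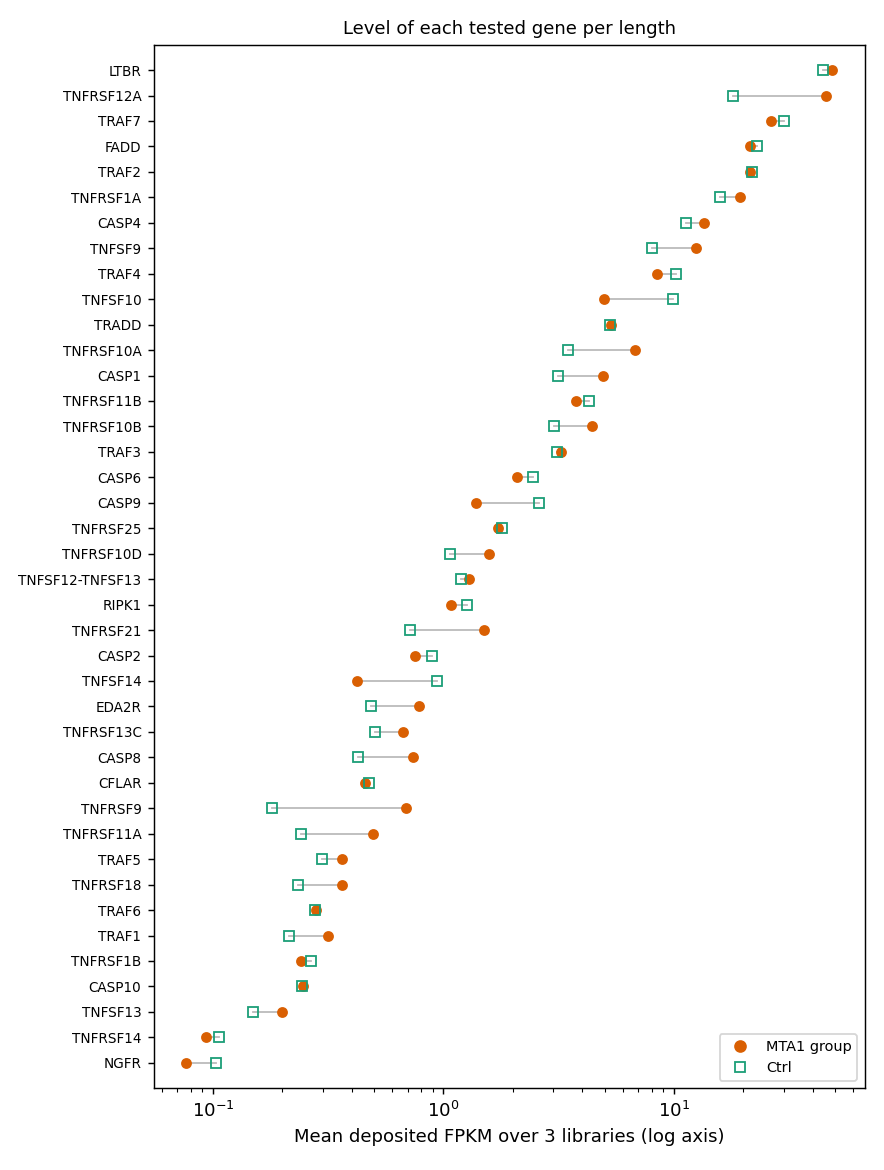
Mean deposited FPKM over 3 libraries (horizontal log axis) of 40 tested members in the MTA1 group (filled circles) and Ctrl (open squares), ordered by their mean over all libraries. LTBR is at the top in both groups, and TNFRSF12A lies beside it only in the MTA1 group.

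Members that lie side by side on a chromosome did not always move together. In RefSeq order, 16 pairs of members had at most 2 coding genes between them, and both genes passed in 2 of these pairs. Most of the 16 pairs held a member that was not tested, so both genes could not pass there. Of all tested genes taken singly, 58.1% passed, and whether neighbours moved together more or less often than other genes was not tested. On chromosome 8 the TRAIL receptor genes TNFRSF10B, TNFRSF10C, TNFRSF10D and TNFRSF10A follow each other, and the 3 with enough reads rose. On chromosome 19, TNFSF9 rose and TNFSF14 fell, with CD70 between them at 0.02 ± 0.052, not called. On chromosome 2, CASP8 rose beside CASP10 and CFLAR, which did not pass. On chromosome 12, TNFRSF1A rose, 1 coding gene away from LTBR, which did not pass. In GENCODE release 29, 20 of the 42 tested members shared exonic bases with another gene, and for 5 that gene had at least 10% of the member's counts: CASP6, TNFRSF10B, TNFRSF25, TNFSF13 and TNFSF12-TNFSF13. The counting strand is not stated, so reads of CASP6 and MCUB, which share 105 bases on opposite strands, and of TNFRSF10B and RHOBTB2, which share 67, cannot be told apart there.

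Beyond the members, 9 superfamily genes with other symbols were chosen for comparison. The count table held 8 of them, without CD40LG; 4 were tested, and 2, both receptors, rose. The death receptor FAS had 10.2, 10.7 and 10.3 CPM in the MTA1 libraries, against 5.34, 6.26 and 5.59 in the Ctrl libraries (edgeR adjusted p = 3.3e-08). RELT, a receptor expressed in blood cells, had 12.2, 13.0 and 12.3 CPM in the MTA1 libraries, against 7.74, 6.63 and 6.02 in the Ctrl libraries (0.88 ± 0.086, edgeR adjusted p = 3.3e-08). The ligand genes CD70 and LTA (0.28 ± 0.25) did not pass, and FASLG had 1 read in all. Of 27 genes of the NF-kB branch, 6 rose and 11 fell; 63.0% were called, and the median on the log2 scale was -0.07. TNFAIP3, or A20, which ends NF-kB signalling and is induced by it, had 2.66, 2.74 and 3.42 CPM in the MTA1 libraries, against 7.96, 6.20 and 6.66 in the Ctrl libraries (-1.24 ± 0.13, edgeR adjusted p = 5.3e-08). The inhibitors NFKBIA (-1.11 ± 0.048) and NFKBIE (-0.50 ± 0.070) fell too, and TNIP1, a partner of A20, rose (0.41 ± 0.039). Of 18 genes of the death branch beyond the caspases, 17 were tested, 4 rose and 6 fell, with a median of -0.02 and 58.8% called. CYCS, cytochrome c (-0.38 ± 0.040), the pore-forming BAX (-0.33 ± 0.051) and the mitochondrial protease HTRA2 (-0.31 ± 0.060) fell, and BIRC6, a giant inhibitor of apoptosis, rose (0.39 ± 0.076). Both shares stood near the 58.1% of all tested genes.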

How the data were processed

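Total RNA of PC-3 cells was made into stranded libraries and sequenced as paired reads, per the labels' protocols. The authors deposited whole-number counts per gene without normalization and FPKM values, scaled by them for length and depth and rounded; aligner, counter, build and annotation were not given in the sources used here. DESeq2 is named in the submitters' processing notes, with neither role nor version. Columns named shMTA1 were taken as the MTA1 samples from their name, and those named NC as Ctrl, the group that remained. The gene counts were fitted with edgeR 4.0.16 under R 4.3.3: filterByExpr left 15423 of 30651 genes, followed by TMM scaling and 2-sided quasi-likelihood F tests, with no covariate beside the group, Benjamini-Hochberg adjusted over all tested genes at a threshold of 0.05. CPM uses TMM-scaled library sizes, and all errors of log2 fold changes are SE. The biological coefficient of variation was 4.45%, and no 2 libraries agreed within counting noise. Counting depth limits the precision of genes under about 1 CPM. The fit was tested on simulated data. Per-length levels use the deposited FPKM. Alternatives used DESeq2 1.42.0 and limma 3.58.1, limma being run on log2(FPKM + 0.1) and log2(FPKM + 1). Named genes were, in each role, up to 4 called members with the smallest p and up to 2 most abundant members not called, with the others accounted for by counts or values, and from each pathway list up to 3 called genes in the commoner direction and 1 in the other. The members, roles and lists were chosen with earlier results of these data known. Promoters come from RefSeq, GRCh38.p14, and overlapping exons from GENCODE release 29; no coordinates of the deposited files were used. A few genes that enter the counts are not reported here.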

Additional observations from a re-analysis of the deposited data

How the results depend on the processing

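Over 14 alternative settings no called member changed direction. Of the 25 called members, 19 kept their call in every setting; those that lost it in some setting included TNFRSF11B, FADD, RIPK1, CASP2 and CASP6. Of the 17 not called, 11 were called in none. Leaving out 1 library at a time gave 13 to 15 members higher and 11 to 13 lower, 9 to 12 pathway genes higher and 15 to 18 lower, and 4092 to 4354 genes higher and 4017 to 4232 lower over all genes. DESeq2 called 14 members higher and 11 lower. Scaling by library size only moved the median of all genes to 0.07 and ended the calls of 4 members while adding 3. The FPKM scales shrank low genes: on log2(FPKM + 1), TNFSF14 stood at -0.45, TNFRSF11A at 0.27 and CASP8 at 0.28, all still called. Deviations of same-numbered libraries from their group means correlated at 0.29, -0.09 and 0.07 over 7428 genes, and not every library correlated best with its own number. Deviations from a mean of 3 libraries constrain one another, so these values cannot decide whether replicate numbers pair the libraries. With the replicate number as a block, 13 members were called higher and 13 lower, TRAF2 being the addition. Genes with few reads are limited by depth, where 1 read is 0.0304 to 0.0328 CPM. The cause of these differences was not tested.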
